A study of Mus musculus with 6 samples.

Results

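Interferons are secreted proteins that put cells into an antiviral and antigen-presenting state, and the interferon genes and the genes of their receptor subunits were followed here in cultured tumour fibroblasts given control siRNA or siRNA against Stat3. Of 8 symbols chosen by name, 7 are rows of the deposited table of 24015 gene symbols: the interferon genes Ifnb1 and Ifng, and the receptor genes Ifnar1, Ifnar2, Ifngr1, Ifngr2 and Il10rb. The symbol Il28ra is not among the rows. RefSeq gives it as an older name of Ifnlr1, which is a row of the table, and Ifnlr1 is described beside the others but not counted with them. The samples were primary cancer-associated fibroblasts grown from mammary tumours of NeuT transgenic mice, BalbC background, and poly(A) RNA was sequenced. All cells received nanoparticles at 1 ug/mL for 72 hours, with control siRNA in 3 samples and anti-Stat3 siRNA in the other 3. Samples of both groups are numbered 1 to 3, and those with the same number, which deviated together from their group means, are called a pair. The labels do not say whether cultures came from separate or pooled animals, so p-values measure the spread between these samples only.

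Type I interferons, of which interferon beta is the form made by most cells including fibroblasts, act through a receptor of the subunits Ifnar1 and Ifnar2. Interferon gamma, the type II interferon, is made mainly by T cells and natural killer cells and acts through Ifngr1, which binds the ligand, and Ifngr2, which brings in the kinase JAK2. Interferon lambda, the type III interferon, uses Ifnlr1 together with Il10rb, a subunit shared with the receptors of IL-10 and IL-22, and Ifnlr1 is largely restricted to epithelial cells. The receptors carry JAK family kinases that activate STAT transcription factors, which switch on interferon-stimulated genes, and STAT3 is also activated by these receptors.

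Total counts ranged from 12998168 to 18683852 per sample. Levels are given as CPM, counts scaled by TMM to a common library size, and the limit set by a count of 0 (3 counts of the library) was 0.159 to 0.230 CPM. Such limits, and the Poisson intervals below, cover counting error only. Stat3 had 220, 358 and 405 CPM in control samples 1 to 3 and 34.7, 81.8 and 78.8 CPM in those given anti-Stat3 siRNA, so every anti-Stat3 sample lay below every control (log2 change -2.33 ± 0.41, SE, edgeR adjusted p = 0.9998 with the group alone and 0.0027 with the pair as a block). All 10 fibroblast markers were tested, with sample medians of 637 to 993 CPM. Their sum was 21661 and 25434 CPM in control and anti-Stat3 sample 1, 64666 and 42053 CPM in pair 2 and 68755 and 52634 CPM in pair 3. Summed macrophage markers (13 of 14 listed genes in the table) were 41.6 to 46.4 CPM in pair 1 and 1569 to 2592 CPM in pairs 2 and 3, with none at 0 in all samples. Summed epithelial markers (9 genes) were 395 and 400 CPM in pair 2 against 43.6 to 140 CPM in the others. In bulk RNA, fewer cells of a type cannot be told apart from less RNA per cell.

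The stretches upstream of Ifnb1, Ifngr2 and Ifnar2, whose levels follow, are shown because they hold matches to motifs of factors that act in these pathways. Each is 200 bases, from 250 to 51 bases before the RefSeq start (GRCm38.p6), in the gene's direction, with the motif match in capitals.
Ifnb1, chr4:88522845-88523044, minus strand: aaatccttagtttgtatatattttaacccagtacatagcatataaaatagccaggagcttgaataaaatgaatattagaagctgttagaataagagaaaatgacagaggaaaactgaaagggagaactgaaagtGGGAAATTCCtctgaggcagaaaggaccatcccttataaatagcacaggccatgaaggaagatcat
Ifngr2, chr16:91546809-91547008, plus strand: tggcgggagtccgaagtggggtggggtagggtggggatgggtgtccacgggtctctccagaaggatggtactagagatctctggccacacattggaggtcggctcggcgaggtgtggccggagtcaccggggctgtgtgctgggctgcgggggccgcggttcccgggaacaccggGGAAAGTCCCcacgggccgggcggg
Ifnar2, chr16:91372533-91372732, plus strand: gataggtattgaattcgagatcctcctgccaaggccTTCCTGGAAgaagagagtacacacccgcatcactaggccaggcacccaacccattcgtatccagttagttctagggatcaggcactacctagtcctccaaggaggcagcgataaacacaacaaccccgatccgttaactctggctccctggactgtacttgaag
The motifs searched on both strands were an NF-kB site (GGGA, any 2 bases, TTCC), the site bound by STAT dimers (TTCNNNGAA), and the interferon-stimulated response element (GAAA, any 2 bases, GAAA). An NF-kB match lies 116 to 107 bases before the start of Ifnb1, and 75 to 66 bases before that of Ifngr2 on the other strand, and 0.935% of 32851 promoter stretches of the same length hold one. Ifnar2 has a STAT match 214 to 206 bases before its start, and Ifng one at 249 to 241 bases, where 5.76% of stretches do. No match of the response element was in the stretches of the 7 genes with an entry, Ifnlr1 among them, and 2.40% of all stretches hold one. The search required exactly 2 bases between the GAAA runs, so other spacings and variants of the element were not sought. No 2 matches overlapped. A match is a run of letters and was not tested as a binding site.

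Ifnb1, which encodes interferon beta, was detected in both samples of pair 1 and in no other sample. It had 29 counts in control sample 1 and 28 in anti-Stat3 sample 1, and 0 in the other 4 samples. These are levels of 1.96 CPM (95% exact Poisson interval 1.31 to 2.81) and 1.75 CPM (1.17 to 2.53). The groups overlapped fully, and within pair 1 the anti-Stat3 level was 0.895 times the control level, with a 95% counting interval of 0.513 to 1.56. The Ifnb1 level in control sample 1 was 10.9-fold the highest limit of the other controls. In anti-Stat3 sample 1 it was 7.62-fold the highest limit of the other anti-Stat3 samples. These folds leave out the counting error of the pair 1 levels. Ifnb1 was below the filter on low counts in the main fit, which asks for about 10 counts in at least 3 samples. With no filter edgeR tested both Ifnb1 and Ifng. That fit called 0 of 18760 genes, so it cannot tell whether either gene changed. Pairs 2 and 3 show no transcript with either siRNA at this depth.

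**Figure D1:**
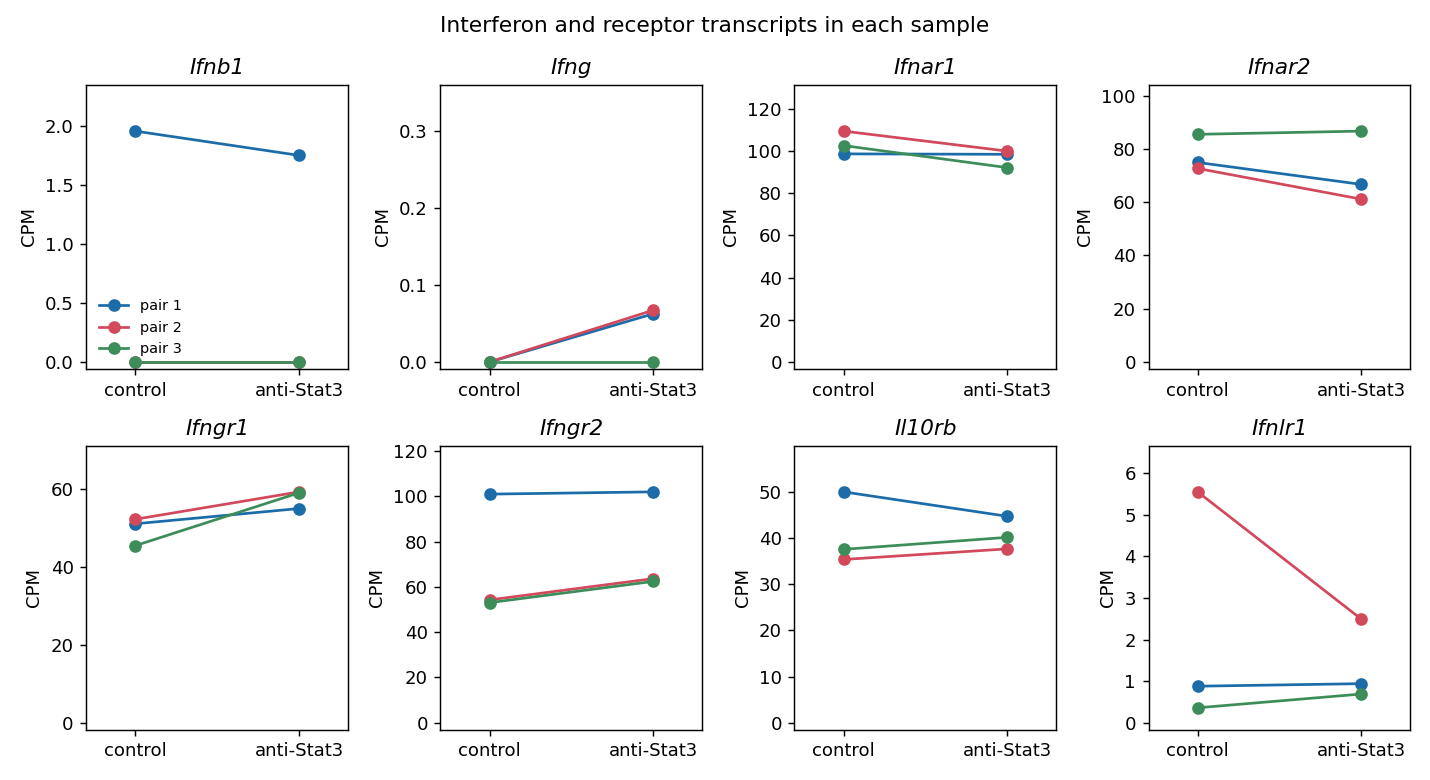
Level of each gene in CPM (linear axes) in the control and anti-Stat3 samples, with a line joining the samples of a pair. Ifnb1 is above 0 in pair 1 only, and Ifngr2 is near 101 CPM in pair 1 and 53.0 to 63.6 CPM in pairs 2 and 3. The other receptor genes except Ifnlr1 each span about 0.50 or less on the log2 scale, against 0.94 for Ifngr2.

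Ifng, which encodes interferon gamma, was at the detection limit. It had 0 counts in each control sample and 1, 1 and 0 counts in anti-Stat3 samples 1 to 3. The upper end of the Poisson interval was at most 0.375 CPM in any sample, and a difference between the groups was not detectable at this depth. Markers of T cells and natural killer cells, known makers of interferon gamma, summed to 1.00 to 1.43 CPM over 14 genes. Of these genes 13 had under 10 counts in every sample, and Cd3d, Cd3g, Cd8a, Ncr1 and Gzma had 0 in all 6. Of 6 listed markers of plasmacytoid dendritic cells, which are strong producers of type I interferon, Siglech had 0 counts in all 6 samples, and Ccr9 and Ly6d stayed under 10 counts. Tcf4, Irf8 and Bst2, which other cells also express, passed the filter, and the list summed to 241 to 1077 CPM, with Bst2 also among the antiviral targets below.

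No other interferon gene reached 10 counts in a sample. A list of 19 (13 Ifna genes, Ifnab, Ifne, Ifnk, Ifnz and the interferon lambda genes Ifnl2 and Ifnl3) held 15 with 0 counts in all samples. The whole list summed to 4, 5 and 2 counts in control samples 1 to 3 and to 1, 1 and 0 counts in the anti-Stat3 samples. The Ifna genes are near-identical in sequence, so reads shared between them may have been left uncounted, a step on which the labels are silent.

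The subunits of the type I interferon receptor were expressed in all samples, Ifnar1 at steadier levels than Ifnar2. Ifnar1 was at 98.6, 109 and 103 CPM with control siRNA and at 98.4, 99.9 and 92.1 CPM with siRNA against Stat3. The groups overlapped, with anti-Stat3 samples 2 and 3 below their own controls and pair 1 level. The mean went from 103 ± 5.46 to 96.8 ± 4.15 CPM (SD, n = 3 each), a log2 change of -0.10 ± 0.13 (SE) when edgeR was fitted with the group alone (adjusted p = 0.9998). Over the 6 samples Ifnar1 spanned 0.25 on the log2 scale, and its SD was at the 1.74th percentile of all 13284 genes tested. Ifnar2, the subunit that binds interferon more tightly, was at 74.9, 72.7 and 85.5 CPM with control siRNA and at 66.7, 61.2 and 86.7 CPM with siRNA against Stat3. Pair 3 was highest in both groups, pairs 1 and 2 were lower with anti-Stat3 siRNA, and the groups overlapped. Over the 6 samples Ifnar2 spanned 0.50 on the log2 scale, with its SD at the 23.9th percentile. Its log2 change was -0.12 ± 0.18 (SE, adjusted p = 0.9998).

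The subunits of the interferon gamma receptor differed from each other in how they varied. Ifngr1 was at 51.0, 52.2 and 45.4 CPM with control siRNA and at 54.9, 59.2 and 59.0 CPM with siRNA against Stat3. Every anti-Stat3 sample was above every control, and the pair changes were 0.11, 0.18 and 0.38 on the log2 scale. Among all tested genes 2.45% had groups that did not overlap with anti-Stat3 higher, and Ifngr1 was the 1 receptor gene of 5 that did, while 0 of 5 lay apart with anti-Stat3 lower (2.23% of all genes). The edgeR test did not call it, at 0.22 ± 0.13 (SE) on the log2 scale (adjusted p = 0.9998), and with the pair as a block the adjusted p was 0.515.

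Ifngr2 was at 101, 54.2 and 53.0 CPM with control siRNA and at 102, 63.6 and 62.4 CPM with siRNA against Stat3. Pair 1 was high with both siRNAs, and the step between pairs was larger than any change with the siRNA. The pair changes were 0.01, 0.23 and 0.23, and the log2 change with the group alone was 0.13 ± 0.33 (SE, adjusted p = 0.9998). An edgeR test of any difference between the 3 pairs, with the group kept in the model and chosen after the data were seen, called Ifngr2 (adjusted p = 0.0036), with log2 differences of -0.79 for pair 2 and -0.82 for pair 3 against pair 1. Of all genes tested, 41.5% passed the same test, and of the 5 receptor genes of the rule Ifngr2 was the 1 that passed, with adjusted p-values of 0.097 for Ifnar2, 0.102 for Il10rb, 0.705 for Ifnar1 and 0.771 for Ifngr1. The high-Ifngr2 pair is the pair with Ifnb1 transcripts and with the lowest sums of macrophage and fibroblast markers, and the part of cell composition in this difference was not tested.

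Il10rb, the subunit shared by the interferon lambda, IL-10 and IL-22 receptors, was at 49.9, 35.3 and 37.5 CPM with control siRNA and at 44.7, 37.6 and 40.1 CPM with siRNA against Stat3. Pair 1 was again highest, the groups overlapped, and the means were 40.9 ± 7.89 and 40.8 ± 3.57 CPM (SD, n = 3 each). The log2 change was -0.0044 ± 0.18 (SE, adjusted p = 0.9998). The ligand-specific partners of Il10rb were scarce. Il10ra, the IL-10 receptor subunit, had 0.270 and 0.125 CPM in pair 1 and 3.43 to 5.67 CPM in pairs 2 and 3, the pairs with many macrophage transcripts. Il22ra1 had at most 2 counts in any sample, and Il10 and Il22 had 0 in all.

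Ifnlr1, the interferon lambda receptor subunit, was low and uneven. Its level was 0.878, 5.55 and 0.360 CPM with control siRNA (13, 105 and 6 counts) and 0.939, 2.49 and 0.690 CPM with siRNA against Stat3 (15, 37 and 9 counts). Both samples of pair 2 were above the other 4, and it was in pair 2 that epithelial markers were highest, a relation that was not tested. Within pair 2 the Poisson intervals of the control (4.54 to 6.72 CPM) and the anti-Stat3 sample (1.75 to 3.43 CPM) did not overlap, while in pair 3 the anti-Stat3 sample was the higher one, with overlapping intervals. Summed epithelial markers were 395 and 400 CPM in these 2 samples of pair 2. The log2 change with the group alone was -0.72 ± 1.04 (SE, adjusted p = 0.9998), and without control sample 2 it was 1.15. The test between pairs called Ifnlr1 (adjusted p = 0.0066), a call lost without control sample 2 (adjusted p = 0.0716).

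Taking the receptor genes of the rule as a set, 0 of 5 were called in the comparison of anti-Stat3 with control siRNA, where edgeR with the group alone called 0 of 13284 genes (0%). None of the 5 had an unadjusted p under 0.05, against 235 of all genes (1.77%). With the pair as a block edgeR called 0.0602% of all genes and DESeq2 1.66%, and again 0 of the 5, as did limma-voom with the block. None of the 5 had an unadjusted p under 0.05 in the blocked edgeR fit either, where 10.8% of all genes did. DESeq2 with the group alone called 0.128% of all genes and 0 of the 5. The 95% intervals of the blocked edgeR fit, narrower than those with the group alone, were -0.33 to 0.14 for Ifnar1, -0.38 to 0.12 for Ifnar2, -0.03 to 0.47 for Ifngr1, -0.09 to 0.40 for Ifngr2 and -0.25 to 0.26 for Il10rb, beside -2.71 to -2.05 for Stat3. With the group alone, the main fit, they were -0.40 to 0.21 for Ifnar1, -0.55 to 0.31 for Ifnar2 and -0.10 to 0.54 for Ifngr1. For Ifngr2 that fit gave -0.67 to 0.93 and for Il10rb -0.44 to 0.43. Blocked fits called too many unchanged genes in simulated data, so the blocked intervals may be too narrow. A miss of the threshold does not show that a receptor gene was unaffected. In 2 of the 5 genes (Ifngr1, Ifngr2) all 3 pairs were higher and in 1 (Ifnar1) all were lower, where 17.3% and 16.4% of all tested genes did so. Each of the 5 stayed within 0.5 of no change in every pair, a limit chosen after seeing the data that 66.8% of tested genes met. The set's median log2 change was -0.0044 with the group alone, and -0.0028 over all genes tested.

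**Figure D2:**
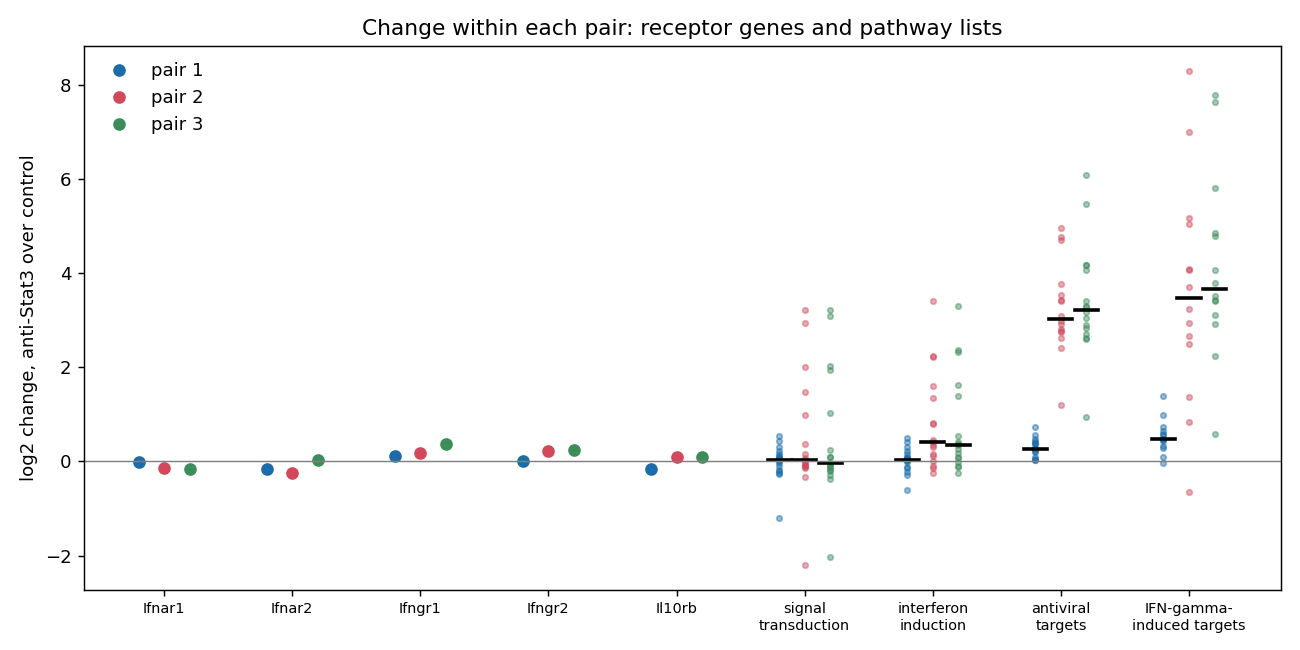
Log2 change of anti-Stat3 over control siRNA within each pair, for the 5 receptor genes (large points) and for the tested members of 4 pathway lists (small points, with the median as a bar). The receptor genes lie between -0.25 and 0.38 in all pairs, while the medians of the target lists are 0.27 to 0.48 in pair 1 and 3.03 to 3.65 in pairs 2 and 3.

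Per kilobase of exon, the 5 receptor genes were expressed at similar levels, with Ifnlr1 far below. In the controls the order by mean was Ifnar1 (26.5 ± 1.40 CPM per kb), Ifnar2 (24.5 ± 2.16), Ifngr1 (23.5 ± 1.71), Il10rb (22.1 ± 4.26), Ifngr2 (18.7 ± 7.37) and Ifnlr1 (0.541 ± 0.684, SD, n = 3 each). Samples of each neighbouring pair of genes in this order overlapped, except between Ifngr2 and Ifnlr1. After anti-Stat3 siRNA Ifngr1 stood first at 27.3 ± 1.14 CPM per kb, with every sample above those of Ifnar1, next at 24.8 ± 1.06 (SD, n = 3 each), and the remaining order was the same. The ratio of the gamma receptor subunits per kb, Ifngr1 over Ifngr2, was 0.887 in control sample 1 against 1.69 and 1.5 in control samples 2 and 3, and 0.946 against 1.63 and 1.66 in the anti-Stat3 samples. The ratio of Ifnar1 to Ifnar2 stayed between 0.862 and 1.33 over all 6 samples. These orders depend on the annotated length: per kb of coding sequence Ifngr2 ranked 1 in both groups, and Ifngr1 over Ifngr2 was below 1 in every sample (0.352 to 0.670).

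**Figure D3:**
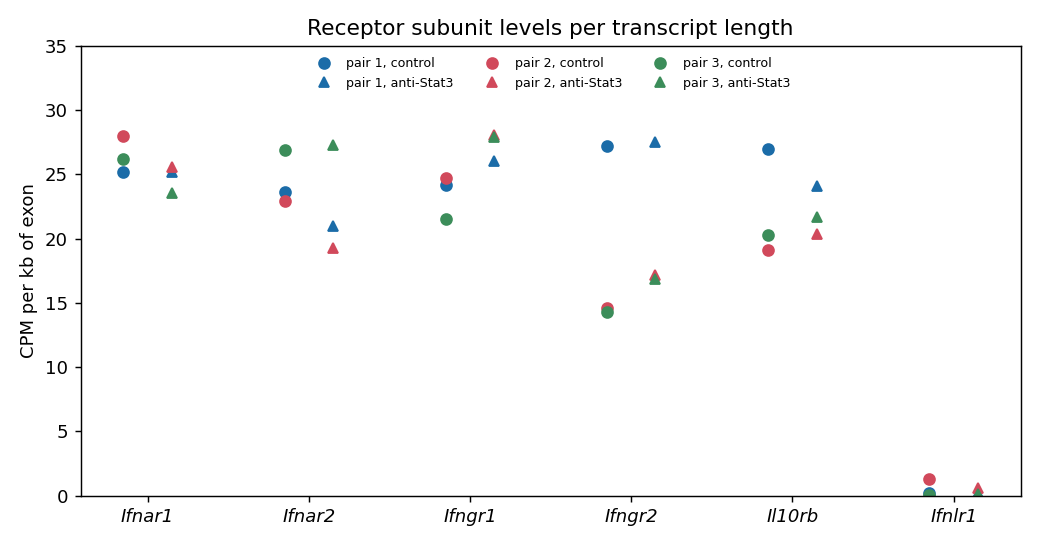
Level per kilobase of exon (CPM per kb, linear axis) of each receptor subunit gene in each sample, controls as circles and anti-Stat3 samples as triangles, coloured by pair. The 5 receptor genes of the rule lie between 14.3 and 28.0 CPM per kb and Ifnlr1 between 0.086 and 1.33 CPM per kb.

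In RefSeq's gene order (GRCm38.p6), 4 of the receptor genes are neighbours on chromosome 16, in the order Ifnar2, Il10rb, Ifnar1 and Ifngr2. Ifngr2 and Il10rb were highest in pair 1, Ifnar2 in pair 3, and Ifnar1 was level. Of these genes only Ifngr2 passed the test between pairs, and differences between their patterns were not tested.

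By the root mean square difference of centred log2 CPM over the 6 samples, among 11911 other genes (11912 for Ifnlr1) whose mean log2 CPM reached 1, the genes most like Ifnar1 were Mau2 (0.020) and Med23 (0.026). Those most like Ifnar2 were Itpkc (0.047) and Gorasp1 (0.050), those most like Ifngr1 Fam53b (0.044) and Stag3 (0.045), and those most like Il10rb Ubap1 (0.031) and Rpp14 (0.033). Ifngr2 was most like Psma6 (0.043), a proteasome subunit that had 180 CPM in control sample 1 and 101 and 92.8 CPM in the other controls, and Gm11974 (0.056). Ifnlr1 was most like Cyb561 (0.298) and Dact2 (0.311), both highest in pair 2. The measure is a description of 6 samples.

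Downstream of the receptors, transcripts of the signalling components differed in how they changed. Of 17 listed genes of interferon signal transduction, all tested, edgeR with the group alone called 0 (3 had an unadjusted p under 0.05, beside 1.77% of all genes), and the list's median log2 change was -0.0010. With the block edgeR, calling 0.0602% of all genes, called 1, Socs3, a feedback inhibitor of cytokine receptors, which fell by 1.84 on the log2 scale (SE 0.19, adjusted p = 0.039), and limma-voom also called 1. Socs3 had 25.1, 85.8 and 156 CPM in control samples 1 to 3 against 10.9, 18.6 and 38.1 CPM in treated samples of the same number, lower in each pair although the groups overlapped. Blocked DESeq2, calling 1.66%, called 2, Socs3 lower and Socs1, an inhibitor of JAK kinases, higher at 1.38 ± 0.31 (SE, adjusted p = 0.0012). Socs1 did not pass in blocked edgeR (adjusted p = 0.160). Of the fits tried on simulated data, blocked DESeq2 exceeded the threshold most in calling unchanged genes. Stat2, a factor of the type I interferon response, was at 201, 94.0 and 112 CPM with control siRNA and at 250, 380 and 453 CPM with siRNA against Stat3. Every anti-Stat3 sample was above every control, and control sample 1 lay nearest to the anti-Stat3 samples. Stat2 was not called with the block (edgeR adjusted p = 0.175). The kinases bound to the receptors, named here after their values were seen, were not called. Jak2 had 128, 132 and 142 CPM in control samples 1 to 3 against 107, 119 and 110 CPM in those given anti-Stat3 siRNA, so every anti-Stat3 sample lay below every control, as in 2.23% of all genes. Jak1 had a log2 difference of -0.06 ± 0.11, Jak2 of -0.26 ± 0.10 and Tyk2 of 0.04 ± 0.11 (SE) in the blocked edgeR fit (adjusted p at least 0.427), and Jak2 was among the 7 of the 17 genes with an unadjusted p under 0.05 there, beside 10.8% of all genes.

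Of 18 genes that lead to the making of interferon, sensors and their adaptors, kinases and factors, 17 were tested and 0 were called in edgeR with the group alone (1 with an unadjusted p under 0.05, beside 1.77% of all genes) or with the block. Their median log2 change was 0.17, and 9 of the 17 were higher in all 3 pairs, beside 17.3% of all tested genes. Blocked DESeq2, which called 1.66% of all genes, called 1, Tlr3, a receptor for double-stranded RNA, at 1.09 ± 0.25 (SE, adjusted p = 0.0019). In blocked edgeR the adjusted p of Tlr3 was 0.170. Irf7, the factor that amplifies type I interferon genes and is itself induced by interferon, was at 391, 19.7 and 18.6 CPM with control siRNA and at 523, 210 and 185 CPM with siRNA against Stat3. Both samples of pair 1, those with Ifnb1 transcripts, were highest, and in pairs 2 and 3 only the anti-Stat3 samples were above 20 CPM. The RNA sensors Dhx58 and Ifih1 had blocked edgeR log2 changes of 1.67 ± 0.35 and 1.62 ± 0.40 (SE) that did not pass (adjusted p = 0.170 and 0.197).

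Transcripts known to be induced by interferon were set beside the ligands and receptors. The median of 16 antiviral targets was 101, 12.4 and 12.6 CPM with control siRNA and 122, 153 and 100.4 CPM with siRNA against Stat3. The median of 15 targets strongly induced by interferon gamma was 45.1, 12.7 and 9.89 CPM with control siRNA and 60.9, 181 and 227 CPM with siRNA against Stat3. Control sample 1, which held Ifnb1 transcripts, was near the anti-Stat3 samples for the antiviral targets, and pairs 2 and 3 had high targets after anti-Stat3 siRNA with 0 counts of Ifnb1 and at most 1 count of Ifng. All 16 antiviral targets and 13 of the 14 tested gamma targets were higher in all 3 pairs, beside 17.3% of all tested genes. The pathway lists were chosen with earlier results of these data known, so such counts describe the lists and are not independent support. In edgeR 0 of either list were called with the group alone or with the block. With the group alone 1 and 7 had an unadjusted p under 0.05, beside 1.77% of all genes. With the block 16 and 13 did, beside 10.8% of all genes. Blocked DESeq2, calling 1.66% of all genes, called 1 antiviral target (Eif2ak2) and 5 gamma targets (Cxcl9, Iigp1, Igtp, Cd74 and Psmb9), all higher. In simulated data this fit called more unchanged genes than the threshold allows. Summed macrophage markers in pairs 2 and 3 were 1666 and 2250 CPM with control siRNA against 1569 and 2592 CPM with siRNA against Stat3, while summed fibroblast markers were lower with siRNA against Stat3 in both pairs. The part of either cell type in the target levels was not tested. Isg15, a ubiquitin-like modifier, was at 528, 49.1 and 48.4 CPM with control siRNA and at 646, 334 and 514 CPM with siRNA against Stat3, and Psmb9, an immunoproteasome subunit, had 5.20, 2.85 and 2.76 against 13.9, 38.7 and 82.7 CPM. Of the remaining genes of this kind named by rule, Bst2, Ifit2 and Ifi27l2a had blocked edgeR log2 changes of 2.11 ± 0.49, 2.22 ± 0.52 and 2.10 ± 0.42, and Tap1, Psmb8 and Cd74 of 2.36 ± 0.50, 2.22 ± 0.46 and 1.62 ± 0.33 (SE), with adjusted p-values of 0.169 to 0.182. Median log2 changes of the 2 lists were 0.27 and 0.48 in pair 1 and 3.03 to 3.65 in pairs 2 and 3. Without pair 1, so on 2 pairs only, the blocked edgeR fit called 5.2% of all genes. Among them were 16 of 16 antiviral and 13 of 14 gamma targets, all higher, and 0 of the 5 receptor genes, of which Ifngr1 had the smallest adjusted p (0.457). Blocked DESeq2 without pair 1 called 3.19% of all genes and 0 of the 5. Without pair 2 or without pair 3, both blocked fits called 0 antiviral and 0 gamma targets, and at most 20 of all genes.

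**Figure D4:**
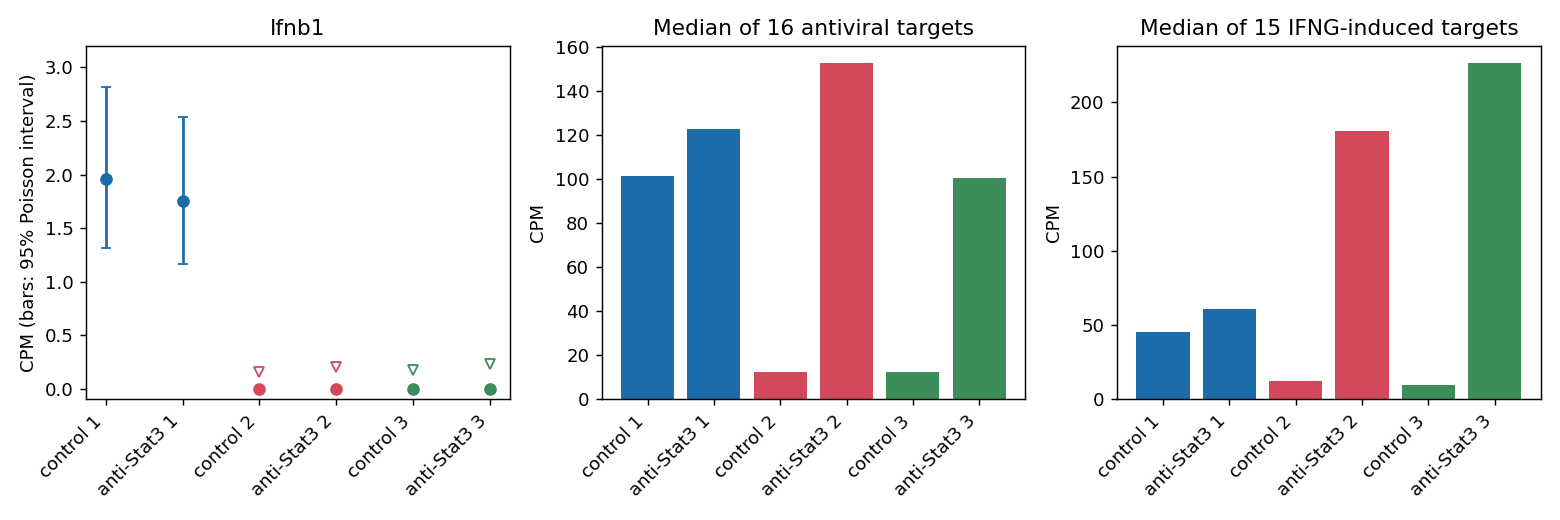
Ifnb1 level in CPM with its 95% Poisson interval (left; open triangles give the level that a count of 0 allows) and the median CPM of the antiviral (middle) and interferon gamma-induced (right) targets in each sample, all on linear axes and coloured by pair. Ifnb1 was detected in pair 1 only, whereas the target medians of pairs 2 and 3 are 9.89 to 12.7 CPM in the controls and 100.4 to 227 CPM in the anti-Stat3 samples.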

How the data were processed

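RNA was extracted with TRIzol, selected for poly(A) and made into TruSeq RNA libraries, per the labels' protocols. Tools named in the submitters' processing notes are TopHat2 2.0.10 and HTSeq, with mm9 as the build. What the authors deposited are raw counts per gene symbol, not normalised, in 6 columns. Strandedness and the treatment of shared reads are not given in the sources used here. Columns write "sh" where titles write "si" and were matched by group and number.

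In R 4.3.3, the main test was edgeR's quasi-likelihood test (version 4.0.16, TMM, the group as the only term, Benjamini-Hochberg threshold 0.05). Its filter, filterByExpr, asked for the CPM of about 10 counts in at least 3 samples, and for 15 counts in total. It kept 13284 genes. DESeq2 1.42.0, limma-voom (limma 3.58.1), other scalings and filters, the replicate block and left-out samples or pairs were alternatives. Log2 CPM of pair changes used a prior count of 2. Exact permutation tests were not used, since 3 against 3 cannot give a two-sided p under 0.1. The fits were tested on simulated data: all recovered the simulated fold sizes, the fit with the group alone missed the smaller changes, and the blocked fits, DESeq2 most, called more unchanged genes than the threshold allows. Same-numbered samples deviated together from their group means (correlations of 0.83, 0.82 and 0.83). Centring on those means then forces the other correlations down (-0.16 or below), so these add no separate support. Spearman correlations of the uncentred counts were 0.971 to 0.995 for the same number and 0.927 to 0.943 for different numbers. The numbers in the titles were therefore taken to pair the samples. Replicates of a group differed well beyond counting noise. Exon lengths came from GENCODE M21 (GRCm38), another build than the counts, and promoter sequences from RefSeq (GRCm38.p6), where 7 of the 8 genes had an entry.

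The members and gene lists were chosen with earlier results of these data known. Named genes are the members, Stat3, up to 4 tested genes of each pathway list with the smallest p in the blocked edgeR fit, Il10rb partners and other interferon genes with 10 or more counts in a sample, and the 2 genes most like each tested member. Names outside this rule were chosen after their values were seen. A gene that this rule names is not reported here.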

Additional observations from a re-analysis of the deposited data

How the results depend on the processing

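The count of called interferon and receptor genes was 0 in every one of the 22 alternatives. Many of these called 0 of all genes, so the count was fixed at 0 there. They include edgeR with other scalings or filters and limma-voom with the group alone. In the fits that called any gene, totals ran from 3 (blocked edgeR without pair 2) to 703 (blocked edgeR without pair 1). The count of receptor genes that differ between pairs was 1 in all 8 of its own alternatives, which were chosen after seeing the data. Over all genes edgeR called 0 with the group alone and 8 with the replicate block, and DESeq2 called 17 and 220. With the replicate block, called signal transduction genes numbered 1 in edgeR, 2 in DESeq2 and 1 in limma-voom. Blocked DESeq2 called 1 induction gene, 1 antiviral target and 5 interferon gamma targets, and DESeq2 with the group alone called 3 of the last. Leaving out samples or pairs gave 0 to 6 signal transduction genes, 0 to 6 induction genes, 0 to 16 antiviral targets and 0 to 13 interferon gamma targets (at most 12 in blocked DESeq2). The highest of these came without pair 1, where blocked edgeR called 5.2% of all genes and blocked DESeq2 3.19%. Without control sample 1 alone the counts were 1, 1, 8 and 3, in a fit that called 40 of 13624 genes.

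The Il10rb change was 0.013 in limma-voom, 0.018 with total counts, 0.0015 without a filter, and 0.0077, 0.0091 and 0.0070 with the replicate block in edgeR, DESeq2 and limma-voom, against -0.0044. Leaving out samples or pairs gave -0.10 to 0.16 for Il10rb (0.093 and 0.097 without pair 1 in blocked edgeR and DESeq2), -0.14 to 0.50 for Ifngr2 and -1.49 to 1.15 for Ifnlr1 (0.42 without pair 2 in blocked edgeR). Il10rb and Ifnlr1 changed direction with and without the block. Ifngr2 did so only where 1 sample of a pair was left out of the fit with the group alone, and it was positive in each pair and, at 0.12 to 0.24, in each blocked fit. Ifnar1, Ifnar2 and Ifngr1 kept theirs in every alternative. Counting depth limits Ifnb1, Ifng and Ifnlr1, and 1 of 3 pairs carries all Ifnb1 counts. The change of Ifng at 1 count moves with the prior count (0.58 to 1.57 in pair 1 and 0.61 to 1.64 in pair 2) and is not interpreted. Transcript lengths are from another build.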

Other observations

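Ifnz, the gene of interferon zeta, had 3, 3 and 2 counts in the controls and 0, 1 and 0 in the anti-Stat3 samples, levels of at most 0.203 CPM, with Poisson intervals that overlap between the groups. Tlr9, a sensor of unmethylated DNA, was the 1 listed induction gene below the filter, at 0, 0.211 and 0.300 CPM with control siRNA and 0.0626, 0.538 and 1.23 CPM with siRNA against Stat3. H2-Aa, an MHC class II chain, was the 1 interferon gamma target below the filter, at 0.0676, 0 and 0 CPM with control siRNA and 0, 0.605 and 2.99 CPM with siRNA against Stat3. These genes were named after their values were seen and were below the filter of the main fit. With no filter edgeR tested Tlr9 and H2-Aa, but that fit called 0 of 18760 genes and cannot tell whether either changed.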
